A study of Homo sapiens with 38 samples.

Results

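Cells make cholesterol from acetyl-CoA through the mevalonate pathway, and the genes of its enzymes are switched on together when sterols run low. The switch is SREBP-2, a membrane-bound transcription factor encoded by SREBF2, which is held in the endoplasmic reticulum by INSIG proteins while sterols are plentiful and is otherwise cleaved and sent to the nucleus. Sterol oversupply therefore lowers the mRNA of these genes as a group, and INSIG1 is itself a target of SREBP-2, which closes a feedback loop.

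Described here are 8 cholesterol synthesis genes, SREBF2, INSIG1, HMGCS1, IDI1, FDFT1, SQLE, LSS and DHCR7, out of 25504 genes with a unique symbol in the RNA table. They were chosen by symbol, and all 8 were among the 10865 genes called expressed, meaning a mean of at least 1 FPKM (fragments scaled by exon length and by all mapped fragments) over the 8 RNA libraries. The libraries came from RKO, a human colorectal cancer cell line, treated with the vehicle DMSO, NCD38, P4_NCD38 or PIPP_NCD38, and collected on day 30 or on day 4. All 8 are listed with 0.1% DMSO and a medium refresh every 5 days. NCD38 inactivates the histone demethylase LSD1, the product of KDM1A. In the conjugates, here called NCD38-β2P4 and NCD38-β2PIPP, it is joined to a pyrrole-imidazole polyamide, a DNA minor-groove binder, and the polyamides differ by an imidazole in place of a pyrrole ring. The labels give 2 μM for each compound, whereas the methods give 2 mM for day 4. Each of the 8 conditions had 1 library, so a same-day comparison has no replicate check, and no group received an unconjugated polyamide in the RNA data.

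Depth, estimated from the lowest FPKM values, was 12500000 to 23000000 fragments per library. KRT18, an epithelial keratin, was at 76.2 to 121 FPKM and CDX2, an intestinal transcription factor, at 7.49 to 11.6 FPKM, whereas VIL1 and KRT20 were listed at 0 in all 8 libraries and CDH1 and LGALS4 reached at most 0.064 and 0.051 FPKM. EPCAM was at 3.94 to 6.54 FPKM on day 30 and 0.092 to 0.867 on day 4. The defining genes of leukocytes (PTPRC), endothelium (PECAM1) and fibroblasts (DCN) were listed at 0 throughout, and COL1A1 reached at most 0.013 FPKM. KRT8, the keratin that pairs with KRT18, was on day 30 at 15.4 FPKM (DMSO), 6.58 (NCD38), 19.0 (NCD38-β2P4) and 13.6 (NCD38-β2PIPP), and at 11.5, 15.9, 11.9 and 9.96 FPKM on day 4. It was thus lowest of day 30 and highest of day 4 in the NCD38 libraries, and its part in the results below was not tested. KDM1A was present in every library, at 38.0 to 72.1 FPKM. Bulk RNA cannot tell fewer cells of a type from less RNA per cell.

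The promoters show what SREBP-2 and its partner NF-Y could read, and 3 of them are printed because SREBF2, INSIG1 and HMGCS1 stand for the factor, its brake and the earliest pathway enzyme described below. Windows of 250 bases before to 50 bases after a start site were taken from RefSeq (GRCh38.p14), where 6 of the 8 genes had 10 windows. Capitals mark matches on either strand to the motifs searched. These were the sterol regulatory element, which is the first capital run of SREBF2, its shorter core TCACNCCAC, the box bound by NF-Y, which reads CCAAT or, on the opposite strand, its reverse complement, and the E-box, which reads CACGTG. The stretches lie at chr22:41832951-41833023 on the plus strand, chr7:155297688-155297848 on the plus strand and chr5:43313488-43313587 on the minus strand.
SREBF2: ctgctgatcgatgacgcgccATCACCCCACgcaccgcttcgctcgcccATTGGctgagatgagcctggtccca
INSIG1: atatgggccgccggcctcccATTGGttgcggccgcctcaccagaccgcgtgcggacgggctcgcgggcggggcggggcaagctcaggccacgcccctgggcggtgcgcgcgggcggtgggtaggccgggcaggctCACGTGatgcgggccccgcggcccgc
HMGCS1: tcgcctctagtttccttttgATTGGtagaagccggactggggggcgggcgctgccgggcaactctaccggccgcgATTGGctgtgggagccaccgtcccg

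The 10-letter element was found in SREBF2 alone of the 6 genes, where the core is part of the same match, and in 0.0456% of all 35116 windows. The core was in 1.13% of all windows. An NF-Y box was present in all 6 genes, SREBF2, INSIG1, HMGCS1, IDI1, LSS and DHCR7, in 7 of their 10 windows, against 34.6% of all windows. The E-box was found in INSIG1 and LSS and in 7.26% of all windows. A match describes letters only, and a window with no match says nothing of binding.

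Across the 8 libraries the genes fell into 3 patterns. SREBF2, FDFT1, LSS and DHCR7 were separated by day and varied less among treatments than between days. IDI1 was also separated by day, in the opposite direction. INSIG1, HMGCS1 and SQLE overlapped between days, and their NCD38 and NCD38-β2PIPP libraries of day 4 lay far apart. This grouping is of FPKM as deposited. After correction for GC content the separation by day changed for LSS, DHCR7, INSIG1 and HMGCS1, as given below.

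**Figure D1:**
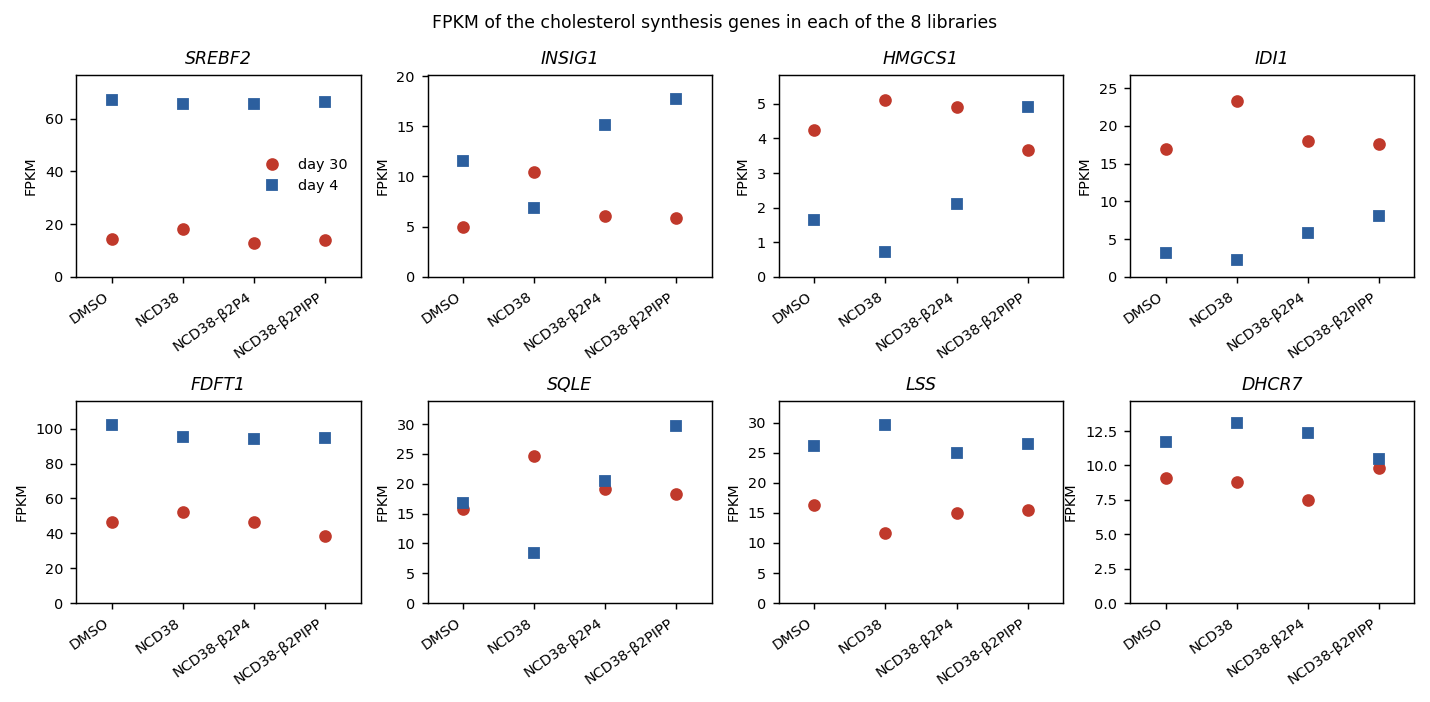
Each panel plots the FPKM (vertical axis, from 0) of a cholesterol synthesis gene in the libraries of DMSO, NCD38, NCD38-β2P4 and NCD38-β2PIPP (horizontal axis), with circles for day 30 and squares for day 4, 1 library per point and no error bar. SREBF2 lay near 66 FPKM in all day 4 libraries and between 13.0 and 18.0 on day 30, whereas INSIG1, HMGCS1, IDI1 and SQLE were lowest with NCD38 and highest with NCD38-β2PIPP on day 4.

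SREBF2 encodes the transcription factor itself (GRCh37 chromosome 22, 42229109 to 42303310, plus strand, 19 exons). On day 30 the DMSO library was at 14.2 FPKM, NCD38 at 18.0, NCD38-β2P4 at 13.0 and NCD38-β2PIPP at 13.9. The day 4 libraries were at 67.1, 65.8, 65.7 and 66.6 FPKM in the same order. The day 4 values differed by less than 2 FPKM among treatments, and the only day 30 library to stand above the others was that of NCD38. The microRNA gene MIR33A inside SREBF2 was listed at 0 in all 8 libraries.

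INSIG1 encodes the sterol-regulated anchor that keeps SREBP-2 in the endoplasmic reticulum (chromosome 7, 155089486 to 155101945, plus strand, 6 exons). The DMSO library of day 30 was at 4.91 FPKM, NCD38 at 10.4, NCD38-β2P4 at 6.03 and NCD38-β2PIPP at 5.82. Those of day 4 were at 11.5, 6.86, 15.2 and 17.7 FPKM. NCD38 gave the highest value of day 30 and the lowest of day 4.

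HMGCS1 encodes the cytosolic synthase that makes HMG-CoA (chromosome 5, 43287572 to 43313614, minus strand, 11 exons). It was the lowest of the 8 genes, at 4.25, 5.10, 4.90 and 3.68 FPKM on day 30 with DMSO, NCD38, NCD38-β2P4 and NCD38-β2PIPP, and at 1.63, 0.731, 2.10 and 4.91 FPKM on day 4. The day 30 values were close together, whereas NCD38-β2PIPP stood above the other libraries on day 4.

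IDI1 encodes the isomerase that interconverts isopentenyl and dimethylallyl diphosphate (chromosome 10, 1085092 to 1095059, minus strand, 5 exons). It was at 17.0, 23.3, 18.0 and 17.7 FPKM on day 30 and at 3.20, 2.17, 5.82 and 8.05 FPKM on day 4, in the same order of treatments. All day 30 values were above all day 4 values, and the order of treatments on day 4 was that of HMGCS1. IDI2-AS1, which overlaps IDI1 on the opposite strand, was between 0 and 1.17 FPKM, and whether the authors' counting used strand is not given in the sources used here.

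FDFT1 encodes squalene synthase, the first enzyme committed to sterols (chromosome 8, 11653082 to 11696904, plus strand, 8 exons). It was the most abundant, at 46.4, 52.2, 46.7 and 38.6 FPKM on day 30 and 102, 95.2, 94.3 and 94.8 FPKM on day 4. On day 4 all 3 inhibitor libraries lay just below DMSO and within 1 FPKM of each other.

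SQLE encodes squalene epoxidase, which catalyses a rate-limiting oxygenation after squalene (chromosome 8, 126010739 to 126034525, plus strand, 11 exons). It was at 15.7, 24.7, 19.1 and 18.3 FPKM on day 30 and at 16.9, 8.35, 20.5 and 29.8 FPKM on day 4. As for INSIG1, NCD38 was highest on day 30 and lowest on day 4. The DMSO values of SQLE were close between the days, unlike those of INSIG1.

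LSS encodes lanosterol synthase, which closes the sterol rings (chromosome 21, 47608055 to 47648738, minus strand, 22 exons), and DHCR7 encodes the reductase of the last step in one branch to cholesterol (chromosome 11, 71139239 to 71163914, minus strand, 9 exons). LSS was at 16.2, 11.7, 14.9 and 15.5 FPKM on day 30 and at 26.2, 29.7, 24.9 and 26.5 FPKM on day 4. DHCR7 was at 9.09, 8.81, 7.49 and 9.84 FPKM on day 30 and at 11.7, 13.1, 12.4 and 10.5 FPKM on day 4. For LSS the NCD38 library was lowest on day 30 and highest on day 4, the reverse of INSIG1 and SQLE. Both genes were lower in every day 30 library than in every day 4 library, but the NCD38-β2PIPP values of DHCR7 were nearly the same on both days.

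The first question was whether each inhibitor moved these genes against DMSO of the same day. The measure was the log2 ratio of FPKM plus 1, a gene was counted when it passed 1.5-fold, and no test was possible with 1 library per side. With NCD38 on day 30, 2 genes were past 1.5-fold upward, INSIG1 at a log2 ratio of 0.95 and SQLE at 0.62, and none downward, where 4.0% of expressed genes passed upward and 2.8% downward. For INSIG1 the FPKM ratio was 2.12, and its log2 value of 1.08 had a 95% counting half-width of 0.22. For SQLE the FPKM ratio was 1.57, with a log2 value of 0.65 and a half-width of 0.13. The half-widths cover counting error only and rest on the estimated depth.

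The other genes on day 30 with NCD38 stayed within 1.5-fold. IDI1 was at 0.44, SREBF2 at 0.32, HMGCS1 at 0.22, FDFT1 at 0.17 and DHCR7 at -0.04, and LSS was the one clearly below DMSO at -0.45. Thus 6 of 8 were higher and 2 lower, where 59.0% of expressed genes were higher. The median was 0.27 against 0.06 over expressed genes. The rank of INSIG1 was 127 and that of SQLE 386 from the top of 10865 genes, whereas LSS was at rank 571 from the bottom. After correction for GC content, INSIG1 remained past 1.5-fold at 0.88, and SQLE at 0.56 fell just short of it.

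With NCD38 on day 4 the values went the other way for most of the genes. SQLE was at -0.93, INSIG1 at -0.67 and HMGCS1 at -0.60, so 3 genes were past 1.5-fold downward and 0 upward, where 22.5% of expressed genes passed downward and 2.1% upward. IDI1 was at -0.41, FDFT1 at -0.10 and SREBF2 at -0.03, and DHCR7 and LSS were slightly higher at 0.15 and 0.17. Of expressed genes 31.7% were higher than DMSO. The 6 lower genes turned to 4 lower and 4 higher after median-ratio scaling, and the median of the 8 moved from -0.25 to 0.09. The scaling raised this library, which had a median log2 deviation of -0.37. None of the 3 genes then passed 1.5-fold, with SQLE at -0.57, HMGCS1 at -0.42 and INSIG1 at -0.32. Over expressed genes the same scaling changed the shares to 17.0% upward and 7.69% downward.

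Base composition moved with that comparison. The log2 ratio of NCD38 to DMSO on day 4 had a Spearman correlation of 0.59 with GC content across genes, which are not independent, and the transcripts of IDI1, HMGCS1, INSIG1, FDFT1 and SQLE hold 37.9, 39.0, 44.8, 46.5 and 46.5% GC against 58.0 to 58.1% for SREBF2, LSS and DHCR7. The 3 genes past 1.5-fold were thus among the 5 with lower GC content. After GC correction none passed: SQLE was at -0.35, HMGCS1 at -0.20 and INSIG1 at -0.05. FDFT1, level with DMSO as measured, was at 0.55 after correction, since genes of its GC content had a median of -0.60.

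NCD38-β2P4 gave small differences. On day 30 all 8 ratios lay between -0.25 for DHCR7 and 0.26 for SQLE, and none passed 1.5-fold in either direction, where 1.43% of expressed genes passed upward and 0.874% downward. On day 4 IDI1 alone passed, upward at 0.70, where 7.87% passed upward and 1.68% downward. Its FPKM ratio was 1.82, with a log2 value of 0.86 and a counting half-width of 0.30. INSIG1 followed at 0.37, SQLE at 0.27 and HMGCS1 at 0.24, and FDFT1 was lowest at -0.11. With GC correction IDI1 was at 0.32 and no gene passed. Across genes this ratio correlated with GC content at a Spearman value of -0.53 (day 4) and -0.52 (day 30). On day 30, where 62.1% of expressed genes were higher than DMSO, the 5 higher genes became 4 after scaling and 2 after GC correction.

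NCD38-β2PIPP on day 30 left all 8 genes between -0.26 for FDFT1 and 0.21 for INSIG1, with none past 1.5-fold, where 1.72% of expressed genes passed upward and 0.911% downward. On day 4 it gave the largest differences of the 8 genes. HMGCS1 was at 1.17, IDI1 at 1.11 and SQLE at 0.79, so 3 genes passed upward and 0 downward, where 27.1% of expressed genes passed upward and 1.91% downward. INSIG1 at 0.58 lay just inside the limit. The FPKM ratio of HMGCS1 was 3.01, with a log2 value of 1.59 and a half-width of 0.27, and that of IDI1 was 2.52, with 1.33 and 0.28.

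These upward values also followed GC content, with a Spearman correlation of -0.69 across genes. SREBF2, LSS and DHCR7, the GC-richer genes, were at -0.01, 0.02 and -0.15. After GC correction SQLE was highest at 0.48, HMGCS1 was at 0.34, IDI1 at 0.28 and INSIG1 at 0.01, and FDFT1 passed 1.5-fold downward at -0.59. Median-ratio scaling left 2 of the 3 genes past the limit, and over expressed genes it gave 18.2% upward and 7.05% downward. With it, 4 of 8 genes were higher than DMSO in place of 5. Before scaling, 63.6% of expressed genes were higher.

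**Figure D2:**
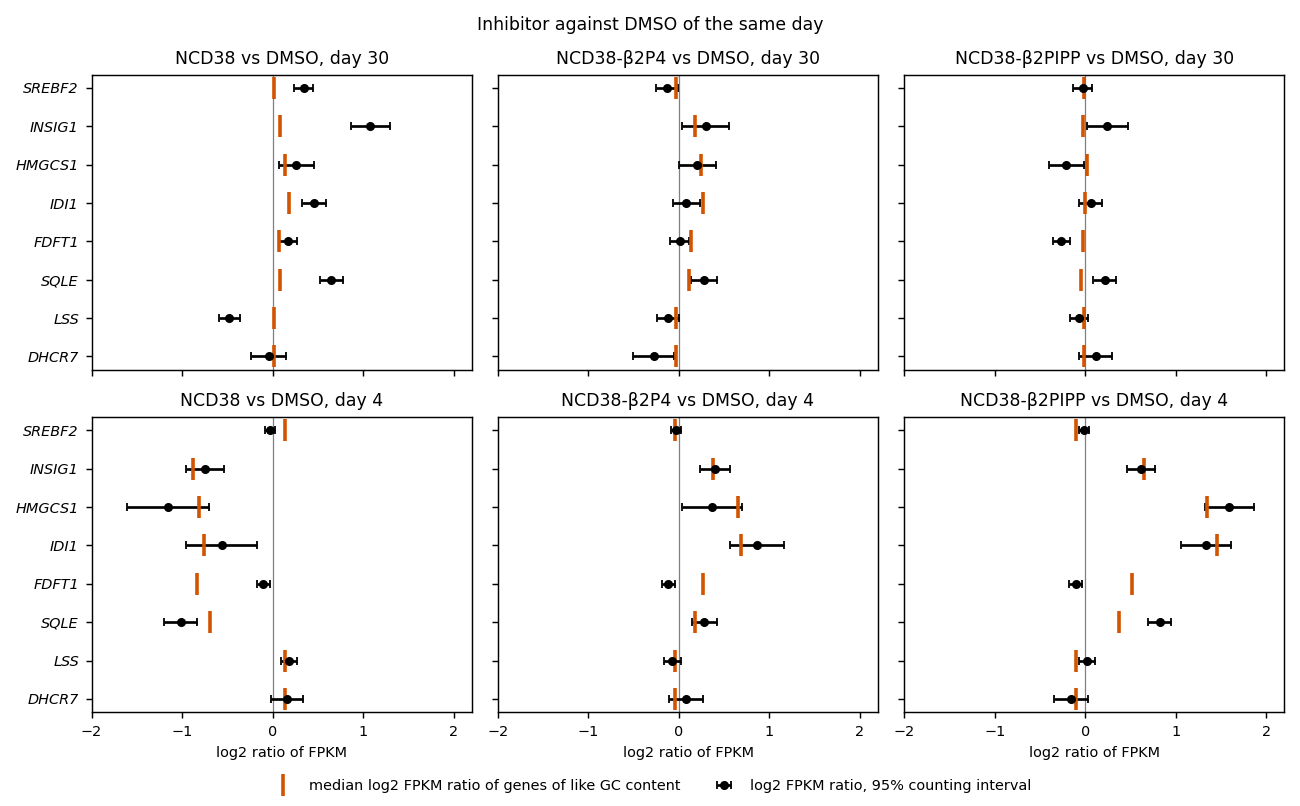
The panels plot the log2 ratio of FPKM, without an added 1, of each inhibitor against DMSO of the same day (horizontal axis) for the 8 genes (rows), 1 library per side, with bars for the 95% counting interval and an orange mark for the median of expressed genes in the same GC bin. INSIG1 at 1.08 and SQLE at 0.65 stood to the right of their marks with NCD38 on day 30, whereas on day 4 most points moved with their marks and FDFT1 did not.

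INSIG1 and SQLE lay on opposite sides of DMSO on the 2 days with NCD38, and so did HMGCS1, IDI1, FDFT1, SREBF2, LSS and DHCR7. In FPKM as deposited, all 8 genes thus changed sides between days, with LSS and DHCR7 in the opposite sense to the others. For SREBF2 and DHCR7, however, at least 1 of the values was within its counting half-width of 0. Over all expressed genes, 59.0% were higher than DMSO on day 30 and 31.7% on day 4. The share of them that changed sides was not counted, so the count of 8 has no background to be read against. With median-ratio scaling SREBF2 and FDFT1 were above DMSO on day 4 too. With GC correction FDFT1 was above DMSO on both days, at 0.07 on day 30 and 0.55 on day 4. INSIG1, IDI1, LSS and DHCR7 were then near DMSO on day 4, at -0.05, -0.06, 0.06 and 0.04. The difference between days was not tested, since each side has 1 library.

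The fit over both days, limma on log2(FPKM + 1) with treatment and day as terms, asked which differences were common to day 4 and day 30. It takes the part of each treatment effect that differs between days as its error. Of the 8 genes, 0 were called at an adjusted p of at most 0.05 for NCD38, NCD38-β2P4, NCD38-β2PIPP or the mean of all inhibitors against DMSO, and 0 had an unadjusted p under 0.05. Over expressed genes limma called 0.0092% upward and 0.0276% downward for NCD38, 0.0092% in each direction for NCD38-β2P4, 0.0% and 0.0184% for NCD38-β2PIPP, and 0.0092% and 0.0184% for all inhibitors, and 145, 32, 62 and 37 genes had an unadjusted p under 0.05. For NCD38 the estimate of INSIG1 was 0.14 ± 0.50 (SE), with a 95% interval of -1.12 to 1.40, and that of SREBF2 was 0.15 ± 0.18, with an interval of -0.29 to 0.59. The intervals of INSIG1, HMGCS1, IDI1 and SQLE span more than 2-fold in both directions for NCD38, so changes of that size were not detectable.

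The compounds were then compared with each other at the same labelled dose and days, in 3 pairs and 24 differences over the 8 genes. None was called, with a lowest limma adjusted p of 0.531, adjusted over all expressed genes, and 0 of 8 genes in each pair had an unadjusted p under 0.05. Over expressed genes limma called 0.0092% upward and 0.0% downward for NCD38-β2P4 against NCD38, 0.0092% in each direction for NCD38-β2PIPP against NCD38, and 0.0092% and 0.0184% for NCD38-β2PIPP against NCD38-β2P4. The largest estimates were those of NCD38-β2PIPP against the parent NCD38. HMGCS1 was 0.69 ± 0.50 (SE) higher on the log2 scale, with a 95% interval of -0.57 to 1.96. SQLE was at 0.65 ± 0.50, with an interval of -0.60 to 1.91, and IDI1 at 0.57 ± 0.47, with an interval of -0.60 to 1.73.

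The conjugates, which differ by the imidazole ring, were closer to each other, with estimates for NCD38-β2PIPP minus NCD38-β2P4 from -0.13 for FDFT1 to 0.30 for HMGCS1. For SREBF2 that difference was 0.06 with a 95% interval of -0.38 to 0.50, and for LSS 0.07 with an interval of -0.47 to 0.61. For INSIG1 it was 0.08, but the interval of -1.18 to 1.34 leaves room for a more than 2-fold difference either way. Intervals over the 24 differences ran from -1.18 to 1.96.

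SREBF2, FDFT1, LSS and IDI1 differed between days beyond the spread between treatments. Means over the 4 treatments are given with the SD between treatments, since there are no replicates. SREBF2 was at 14.8 ± 2.23 FPKM on day 30 and 66.3 ± 0.695 on day 4 (n = 4 each), a log2 difference of -2.10 ± 0.12 (SE) in limma with an adjusted p of 0.000399. FDFT1 was at 46.0 ± 5.58 and 96.6 ± 3.73 FPKM, a difference of -1.06 ± 0.11 with a limma adjusted p of 0.00102. LSS was at 14.6 ± 2.02 and 26.8 ± 2.03 FPKM, a difference of -0.85 ± 0.15 with a limma adjusted p of 0.00541.

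IDI1 was the one gene called upward on day 30, from 4.81 ± 2.65 to 19.0 ± 2.93 FPKM, a difference of 1.89 ± 0.33 with a limma adjusted p of 0.00476. In all, 1 of the 8 was called upward and 3 downward, where limma called 30.2% of expressed genes upward and 31.7% downward. Day 30 values did not overlap those of day 4 for IDI1, higher, and for SREBF2, FDFT1, LSS and DHCR7, lower, where 29.5% of expressed genes were higher and 33.1% lower without overlap. With median-ratio scaling the DHCR7 values of the days overlapped. Beside the shares of all expressed genes, fewer of the 8 were higher on day 30 and more were lower. With 8 genes this was not tested and is not read as a difference.

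The remaining 4 genes were not called. DHCR7 differed by -0.40 ± 0.15 (limma adjusted p of 0.0691), HMGCS1 by 0.85 ± 0.36 (0.0861), INSIG1 by -0.80 ± 0.36 (0.101) and SQLE by 0.15 ± 0.36 (0.734). With median-ratio scaling INSIG1 and HMGCS1 were called, at limma adjusted p of 0.0407 and 0.0364. Under that scaling limma called 3603 of 10865 expressed genes upward and 3339 downward. With either NCD38 library left out INSIG1 was at -1.25, and with either NCD38-β2PIPP library left out HMGCS1 was at 1.25. Either choice gives the same estimate, since the remaining library of that treatment adds nothing to the day difference. By treatment, INSIG1 differed between day 30 and day 4 on the log2 scale by -1.08 (DMSO), -1.20 (NCD38-β2P4) and -1.45 (NCD38-β2PIPP), but by 0.54 with NCD38. SQLE was at 1.46 with NCD38 and between -0.68 and -0.09 with the others.

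The day difference followed GC content across expressed genes, with a Spearman correlation of -0.68. Against the median of genes in the same GC bin, SREBF2 was still lower by a log2 value of -1.37, FDFT1 by -1.29 and INSIG1 by -1.20. LSS was at -0.11 and DHCR7 at 0.34 on this scale, and IDI1 at 0.50. With GC correction of each library, LSS was no longer called (limma adjusted p of 0.384), INSIG1 was called downward at -1.21, and HMGCS1 and DHCR7 changed direction, to -0.36 and 0.32. The LSS values of the days then overlapped. Without overlap, INSIG1 and HMGCS1 were then lower on day 30 and DHCR7 higher. After this correction limma called 2854 of 10081 expressed genes upward and 2807 downward, and their share without overlap is not given here. Day cannot be told apart from anything else that differed between the 2 sets of libraries.

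**Figure D3:**
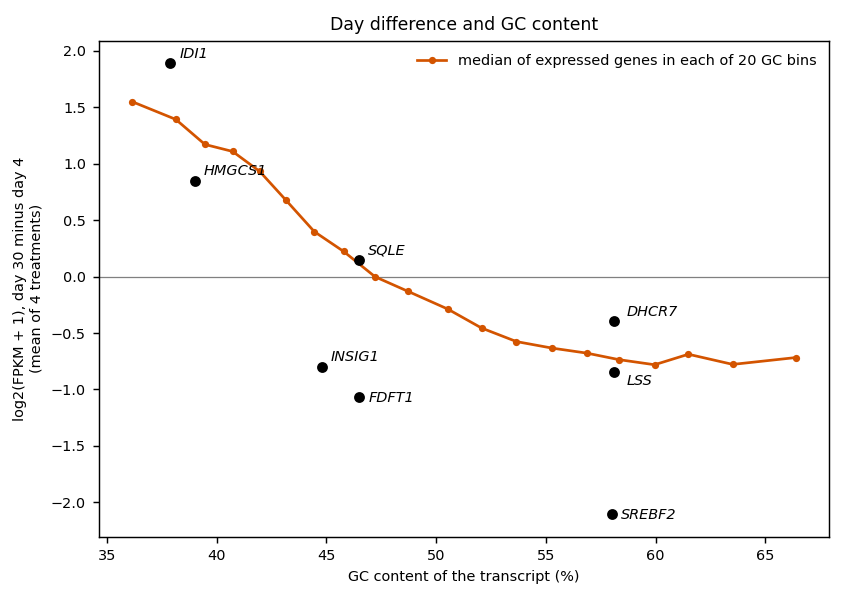
The plot sets the day 30 minus day 4 difference in log2(FPKM + 1), averaged over 4 treatments (vertical axis), against the GC content of the transcript in percent (horizontal axis), with black points for the 8 genes and an orange line through the medians of expressed genes in 20 GC bins. LSS and SQLE lay nearest the medians of their bins, IDI1 and DHCR7 lay 0.50 and 0.34 above them, and SREBF2, FDFT1 and INSIG1 lay below by -1.37, -1.29 and -1.20 on the log2 scale.

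Neighbouring genes of the pathway were taken from lists of 33 genes, of which 30 were expressed. With NCD38 on day 30, 1 of the 30 passed 1.5-fold upward and none downward, where 4.0% of expressed genes passed upward and 2.8% downward. It was MSMO1, the C4-methyl sterol oxidase of the steps after lanosterol, at 6.78 FPKM with DMSO and 11.9 with NCD38, a log2 ratio of 0.73, which GC correction took to 0.55, short of 1.5-fold. In the list of sterol steps 6 of 7 genes were higher, where 59.0% of expressed genes were. That list had a median of 0.35 against 0.06 over expressed genes, whereas the mevalonate list had 4 of 6 higher and a median of 0.07.

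The exception among the sterol steps was TM7SF2, a sterol reductase, at 30.0 FPKM with DMSO and 21.2 with NCD38. On day 30 the same list was higher in 7 of 7 genes with NCD38-β2PIPP, at 0.03 to 0.51, where 46.2% of expressed genes were higher, and in 6 of 7 with NCD38-β2P4, where 62.1% were. With NCD38-β2P4 only 4 of the 7 lay above the median of their GC bin, against 7 of 7 with NCD38-β2PIPP, and none of the genes passed 1.5-fold with either conjugate. The 3 ratios share the DMSO library, so they are not separate observations of a direction.

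On day 4 with NCD38, 6 of the 30 genes passed downward, where 22.5% of expressed genes did, so the count is near that share. CYP51A1, lanosterol demethylase, went from 16.6 FPKM with DMSO to 6.09 with NCD38, and MSMO1 from 4.13 to 1.09, with log2 ratios of -1.31 and -1.30. The others were ACACA and SCD of fatty acid synthesis at -0.99 and -0.91, NPC1, which moves cholesterol out of lysosomes, at -0.82, and MBTPS1, a protease that cleaves SREBP, at -0.75. After GC correction CYP51A1 and MSMO1 were still at -0.86 and -0.95, while the other four lay between -0.51 and -0.26.

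On day 4 with NCD38-β2PIPP, 4 of the 30 passed upward, where 27.1% of expressed genes did, a larger share. ELOVL6, a fatty acid elongase, went from 2.94 FPKM with DMSO to 9.58, a log2 ratio of 1.43, and it was at 0.69 after GC correction. GGPS1, which makes geranylgeranyl diphosphate, was at 0.88, MYLIP, a ubiquitin ligase induced by LXR, at 0.75 and CYP51A1 at 0.70. These genes were at 0.04, 0.44 and -0.15 after correction. With NCD38-β2P4 no listed gene passed on either day.

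**Figure D4:**
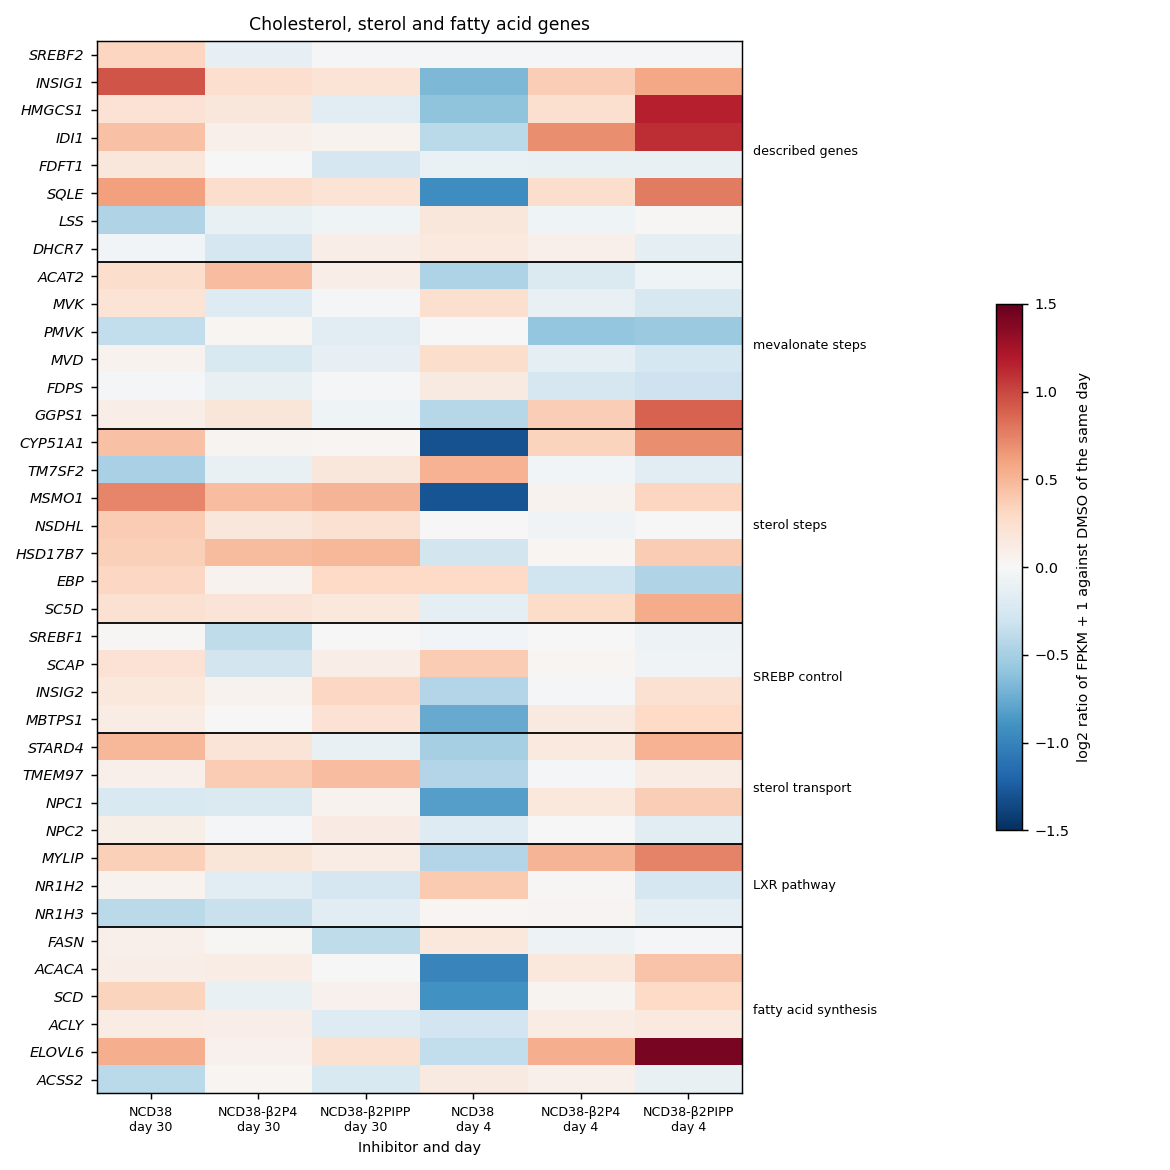
Colours give the log2 ratio of FPKM plus 1 against DMSO of the same day (red higher, blue lower, 1 library per side) for the 8 genes and the 30 expressed genes of the pathway lists (rows), in 6 comparisons (columns). The deepest blue lies at CYP51A1 and MSMO1 with NCD38 on day 4 (-1.31 and -1.30), and the deepest red at ELOVL6 with NCD38-β2PIPP on day 4 (1.43).

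Between days, limma called 1 of the 6 mevalonate genes upward and 5 downward, 2 and 2 of the 7 sterol genes, and 1 and 3 of the 6 fatty acid genes, where it called 30.2% of expressed genes upward and 31.7% downward. Of the 4 SREBP control genes it called INSIG2 upward and SREBF1 and SCAP, the escort of SREBP, downward. GGPS1 was the mevalonate gene that rose, from 1.59 to 12.3 FPKM. These calls are not corrected for GC content. Against the median of their GC bin, INSIG2 was at -0.41, SREBF1 at 0.025 and SCAP at -0.52, so INSIG2 rose less than its bin. On this scale GGPS1 was at 1.33, and the 5 mevalonate genes called downward lay between -1.015 (ACAT2) and -0.04 (PMVK). The sterol genes called upward, MSMO1 and SC5D, were at -0.14 and -0.64, and those called downward, NSDHL and EBP, at -0.57 and -0.51.

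After the mean of each day was subtracted, SQLE, IDI1, INSIG1 and HMGCS1 had similar profiles over the 8 libraries. Their Pearson correlations with the mean of the other 7 genes were 0.96, 0.95, 0.92 and 0.88. SREBF2 was at 0.32 and FDFT1 at 0.16, whereas LSS and DHCR7 were at -0.70 and -0.59. The closest pair was IDI1 and SQLE at 0.95, and INSIG1 and LSS were most opposed at -0.84. These values rest on 8 libraries that differ within a day in depth and in how FPKM follows GC content. On day 4 the ratios to DMSO correlated with GC content at 0.59 (NCD38), -0.53 (NCD38-β2P4) and -0.69 (NCD38-β2PIPP). SQLE, IDI1, INSIG1 and HMGCS1 hold 37.9 to 46.5% GC, as against 58.1% in LSS and DHCR7, but FDFT1 holds 46.5% and SREBF2 58.0%. The part of GC content in these correlations was not tested.

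The expressed genes outside the 8 with profiles most like their mean were SPTLC1, PPP1R15B, OSBPL2, UBE2V2 and ABL2, with day-centred correlations of 0.988 to 0.992 over 8 libraries. SPTLC1, a subunit of the enzyme that starts sphingolipid synthesis, was at 10.2, 16.7, 11.3 and 11.8 FPKM on day 30 and 7.38, 4.02, 9.12 and 14.4 FPKM on day 4, in the order of treatments used above. The likeness follows from how these genes were picked.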

How the data were processed

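RNA was measured in 8 libraries of RKO cells. The authors deposited FPKM values, which they computed with TopHat and Cufflinks from TruSeq stranded mRNA libraries. The submitters' processing notes also name HISAT2 2.2.1.0, BWA 0.5.9, bedtools 2.20.1 and hg19, without roles. FPKM is divided by length and mapped fragments and holds no counts. The ChIP-seq files were not used here.

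Of 25594 entries, 90 with a repeated symbol were left out, and genes with a mean of at least 1 FPKM were kept as expressed. Values were taken as log2(FPKM + 1), which understates changes of low genes. limma 3.58.1 (R 4.3.3, eBayes with trend) was fitted to all 10865 expressed genes with treatment and day as terms, leaving 3 residual degrees of freedom, and p-values were adjusted by the Benjamini-Hochberg method over these genes. The labels do not say whether cultures were separate, and day 4 and day 30 stood in for replicates, so p-values measure only the spread left between these libraries. How often this fit would miss a real difference between these libraries was not tested.

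GC content and exon structure came from GENCODE 44 on GRCh37 for 10081 expressed genes (92.8%). For GC correction, the median deviation in 20 GC bins was subtracted in each library. Depth was estimated from the pile-up of FPKM values under 0.2 in transcripts over 800 nt. It is no recovered count, and intervals cover counting error only. Python 3.11.15 was used for the other steps.

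The 8 genes, the pathway lists and the rules were chosen with earlier results of these data known. Named were the 8 genes, listed pathway genes past 1.5-fold in a comparison (up to 6 by size) and the 5 genes of mean FPKM of at least 5 most like the mean profile. TM7SF2 and the pathway genes named for the day difference were named after their values were seen. A listed pathway gene is not reported here and was left out of the list counts. Alternatives changed the pseudocount, scaling, GC correction, filter, fold, DMSO library, day term, eBayes trend and the set of libraries.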

Additional observations from a re-analysis of the deposited data

Results flagged for a closer look

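With NCD38, INSIG1 and SQLE lay on opposite sides of DMSO on the 2 days, both past 1.5-fold each time. INSIG1 was at a log2 ratio of 0.946 on day 30 and -0.672 on day 4, and SQLE was at 0.618 and -0.933. The difference was not tested, as each side has 1 library. After median-ratio scaling the day 4 values were -0.32 for INSIG1 and -0.57 for SQLE, neither past 1.5-fold. After GC correction the day 4 values were -0.05 for INSIG1 and -0.35 for SQLE, and the day 30 values were 0.88 and 0.56. When DMSO was taken from the other day, INSIG1 changed sign on both days.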

How the results depend on the processing

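The number of genes past 1.5-fold against same-day DMSO depended on several choices. At 2-fold it fell from 2 to 0 for NCD38 on day 30, from 3 to 0 for NCD38 on day 4 and from 1 to 0 for NCD38-β2P4 on day 4. GC correction gave 1 and 0 for NCD38 on day 30 and day 4, 0 for NCD38-β2P4 on day 4 and 1, downward, for NCD38-β2PIPP on day 4, and median-ratio scaling gave 0 for NCD38 on day 4. The DMSO library of the other day, which adds the day difference by construction, gave 5 for NCD38 on day 30 and 6 in each of the other 5 comparisons, and it turned INSIG1 with NCD38 to -0.135 on day 30 and 0.41 on day 4, and IDI1 on day 4 to -1.397 (NCD38-β2P4) and -0.988 (NCD38-β2PIPP). The counts of genes called by limma for the 7 treatment contrasts stayed at 0 under every alternative that was run. For the day difference the count was 4 and lay between 4 and 6 under the alternatives, 4 to 5 with a library left out. With a library left out, the remaining library of that treatment is assumed to vary like the others, and the treatment contrasts called 0 to 27 expressed genes, against 1 to 4 with all libraries. No analysis paired by replicate number was possible because the labels carry none. Day, which the treatments share, was a term of the fit, and without it the treatment contrasts called 0 of the 8 genes. Genes near 1 FPKM, such as HMGCS1 on day 4, are limited by depth and by the added 1: its FPKM ratio of 0.448 with NCD38 became 0.658 with it.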
